A study of Mus musculus with 4 samples.

Results

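Fos, Fosb, Jun, Junb, Jund, Atf3, Ier2, Egr1, Dusp1 and Hspa1a are 10 immediate early and stress response genes, and their transcripts were followed here in A_undiff, the undifferentiated spermatogonia of the mouse testis. They were chosen by symbol among the 27514 genes listed in all 4 single-cell libraries, and each symbol was found in every library. A further 118 genes of 6 lists (partners of AP-1, other immediate early genes, feedback inhibitors, upstream kinases and factors, heat shock genes, and genes of the unfolded protein and amino acid stress responses) were measured beside them.

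Immediate early genes are transcribed within minutes of a signal from transcription factors that are already present in the cell, such as SRF and CREB, and need no new protein. FOS and JUN proteins pair to form AP-1, a transcription factor, while DUSP phosphatases and other products of the response switch the MAP kinases off again. In the testis these kinases carry the GDNF and FGF signals that sustain stem cells, and the same genes are also switched on in many tissues by the enzymatic digestion that releases single cells.

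Testes came from adult C57BL/6J mice of 6 to 8 weeks. CTRL mice were left untreated, and BU mice had received 1 dose of busulfan, an alkylating drug that kills most spermatogonia, at 10 mg/kg and were taken 10 days later. All cells, CTRL and BU, were released by enzymes (collagenase and trypsin by the labels, collagenase alone by the methods for sorted live cells) and sorted as E-cadherin+, CD49f+ and c-KIT-, so that every level below is a level after digestion and sorting. Each of the 4 libraries pooled 3 mice, and experiment 1 and experiment 2 each gave 1 CTRL and 1 BU library (CTRL 1, BU 1, CTRL 2 and BU 2). The labels name kit version 2 for experiment 1 and 3.1 for experiment 2, so kit, depth and experiment cannot be told apart. With n = 2 pools per group, p-values for BU or for the experiment measure the spread between these libraries. Where 2 sets of cells of the same libraries are compared with library as a block, they measure how that difference varies between libraries.

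Of 9229 barcodes, 7493 held over 1000 genes and under 20% mitochondrial UMIs and were kept (1120 to 3101 per library, median 8066 to 34180 UMIs). A cell was called Gfra1+ or Sox3+ where ln(1 + 100000 times the gene's share of UMIs) was above 2. At the median depth of CTRL 1 and BU 1 (8066 and 9858 UMIs) a single UMI was enough for this. At that of CTRL 2 and BU 2 (30930 and 34180 UMIs) it was not. Gfra1 encodes the GDNF co-receptor of the stem cell-enriched fraction, and Sox3 a transcription factor of progenitors. There were 585, 214, 865 and 528 Gfra1+ cells and 1470, 646, 473 and 264 Sox3+ cells in CTRL 1, CTRL 2, BU 1 and BU 2. Of these, 150, 78, 100 and 57 carried both labels and entered both classes. Levels are UMIs summed over the cells of a class and scaled to 1000000 UMIs of that class (CPM), and a sum cannot tell fewer positive cells from less RNA per cell.

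Both classes were germ cells by their markers. Summed over Ddx4, Dazl, Sall4 and Zbtb16, the germ cell markers held 1593 to 2277 CPM in every class and library. The 22 markers of somatic testis cells summed to 26.2, 164, 29.7 and 133 CPM in Gfra1+ cells of CTRL 1, CTRL 2, BU 1 and BU 2, with 12 to 19 of the 22 detected and Dcn at 0 in each, and to 23.8 to 28.8 CPM in Sox3+ cells. CTRL 2 and BU 2 shared 677 barcodes, of which 70 were kept in both, and CTRL 1 and BU 1 shared 11. Among kept cells the shallower copy of a shared barcode was rare in the classes used here, with at most 4 cells in any library, and leaving these copies out changed no call of the 10 genes in the comparisons below. Kit, which marks differentiating spermatogonia, held 2.05, 6.61, 48.6 and 65.7 CPM in Sox3+ cells and 1.05, 6.24, 6.55 and 17.9 CPM in Gfra1+ cells, although c-KIT+ cells had been gated out.

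The 250 bases before the annotated starts of Fos, Jun and Hspa1a are shown because these genes take opposite sides in the comparisons that follow and represent the 2 kinds of gene, immediate early and heat shock. They are RefSeq sequences on GRCm38.p6, at chr12:85473640-85473889 (plus strand), chr4:95052223-95052472 (minus strand) and chr17:34972157-34972406 (minus strand). Capitals mark matches, on either strand, to the core TGACGT of the CRE, the site of CREB, to TGACATCA (the jun1 element of the Jun promoter) and to GAANNTTC or TTCNNGAA, a pair of heat shock units.
Fos: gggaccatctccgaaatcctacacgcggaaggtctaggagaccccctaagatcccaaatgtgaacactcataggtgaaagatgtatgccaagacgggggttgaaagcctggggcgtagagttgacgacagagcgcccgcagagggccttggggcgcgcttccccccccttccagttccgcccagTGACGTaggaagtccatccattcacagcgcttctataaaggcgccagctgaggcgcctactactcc
Jun: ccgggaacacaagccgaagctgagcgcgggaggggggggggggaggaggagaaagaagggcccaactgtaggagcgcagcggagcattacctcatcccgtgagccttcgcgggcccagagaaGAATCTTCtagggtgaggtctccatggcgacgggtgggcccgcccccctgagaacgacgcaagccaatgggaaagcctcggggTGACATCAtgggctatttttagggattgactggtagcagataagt
Hspa1a: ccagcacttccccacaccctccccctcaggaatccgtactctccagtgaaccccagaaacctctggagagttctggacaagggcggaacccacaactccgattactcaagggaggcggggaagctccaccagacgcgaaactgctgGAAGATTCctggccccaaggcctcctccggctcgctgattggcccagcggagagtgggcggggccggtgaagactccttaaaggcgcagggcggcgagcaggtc
Promoters were found for 8 of the 10 genes, all but Ier2 and Egr1. TGACGT occurred in 3 of the 8 (Fos, Atf3 and Dusp1) and in 6.47% of all 32851 promoters of this length, and the full CRE, TGACGTCA, which contains it, occurred in Dusp1 and in 1.55% of all. TGACATCA was found in Jun alone among the 8 and in 2.93% of all promoters. The heat shock pair was found in Jun and Hspa1a and in 12.8% of all. TGACTCA or TGAGTCA, the AP-1 site, occurred in 4.46% of all promoters and the CArG box, the site of SRF, in 1.47%, and neither was in any of the 8 windows. Sites outside these 250 bases, or near Ier2 and Egr1, were not searched, so the genes may hold such sites elsewhere. These matches describe letters and were not tested as binding sites.

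The first question was whether these genes were expressed alike in the stem cell-enriched and the progenitor fraction. Fos, Jun, Junb and Ier2 were lower in Sox3+ Gfra1- cells than in Gfra1+ Sox3- cells of the same library, and Hspa1a and Jund were higher. Cells with both labels lay between the 2 classes for Fos, Ier2, Jun, Junb and Hspa1a in every library, as the plot of levels across the 3 classes shows.

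Fos (ENSMUSG00000021250, chr12:85473890-85477273 on GRCm38), the FOS subunit of AP-1, stood at 32.0, 22.6, 38.4 and 24.5 CPM in Gfra1+ Sox3- cells of CTRL 1, CTRL 2, BU 1 and BU 2. In Sox3+ Gfra1- cells it stood at 5.26, 2.63, 10.3 and 7.45 CPM. The highest Sox3+ Gfra1- value, in BU 1, was below the lowest Gfra1+ Sox3- value, in CTRL 2. The log2 difference was -2.27 ± 0.20 (SE; adjusted p = 0.00013, edgeR's quasi-likelihood test with library as a block). This and the adjusted p below come from that test with Benjamini-Hochberg adjustment over all genes tested, with the terms given for each comparison, except where DESeq2 is named. Ier2 (chr8:84661331-84662852), an immediate early gene for a nuclear protein, held 54.7, 44.2, 84.3 and 65.6 CPM in Gfra1+ Sox3- cells and 15.5, 8.71, 24.4 and 26.4 CPM in Sox3+ Gfra1- cells. Here too the 2 classes did not overlap in any library, and the log2 difference was -1.75 ± 0.14 (adjusted p = 6.8e-05).

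Jun (chr4:95049034-95052222), the partner of FOS, held 14.1, 29.9, 23.4 and 27.6 CPM in Gfra1+ Sox3- cells and 4.60, 5.27, 9.75 and 6.90 CPM in Sox3+ Gfra1- cells. Junb (chr8:84974484-84978718), a JUN paralogue that often restrains AP-1 activity, held 4.61, 20.3, 13.3 and 21.1 CPM against 1.15, 0.848, 5.13 and 2.89 CPM. Jun did not overlap between the classes, while Junb of BU 1 in Sox3+ Gfra1- cells exceeded Junb of CTRL 1 in Gfra1+ Sox3- cells. The log2 differences were -1.85 ± 0.20 for Jun (adjusted p = 0.00028) and -2.77 ± 0.43 for Junb (adjusted p = 0.0019).

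Hspa1a (ENSMUSG00000091971, chr17:34969190-34972156), the inducible HSP70 chaperone, ran the other way. It held 5.84, 1.04, 1.85 and 1.75 CPM in Gfra1+ Sox3- cells, 28.4, 14.2, 4.97 and 7.11 CPM in cells with both labels and 47.1, 44.7, 12.3 and 18.6 CPM in Sox3+ Gfra1- cells. The rise across the 3 classes was seen in each library, and the log2 difference was 3.50 ± 0.31 (adjusted p = 0.00012). Jund (chr8:70698949-70700616), the constitutive JUN family member, held 428, 530, 400.4 and 440 CPM in Gfra1+ Sox3- cells and 512, 618, 514 and 634 CPM in Sox3+ Gfra1- cells. It was higher in Sox3+ Gfra1- cells of every library although the ranges overlapped, by 0.39 ± 0.07 on the log2 scale (adjusted p = 0.0042).

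**Figure D1:**
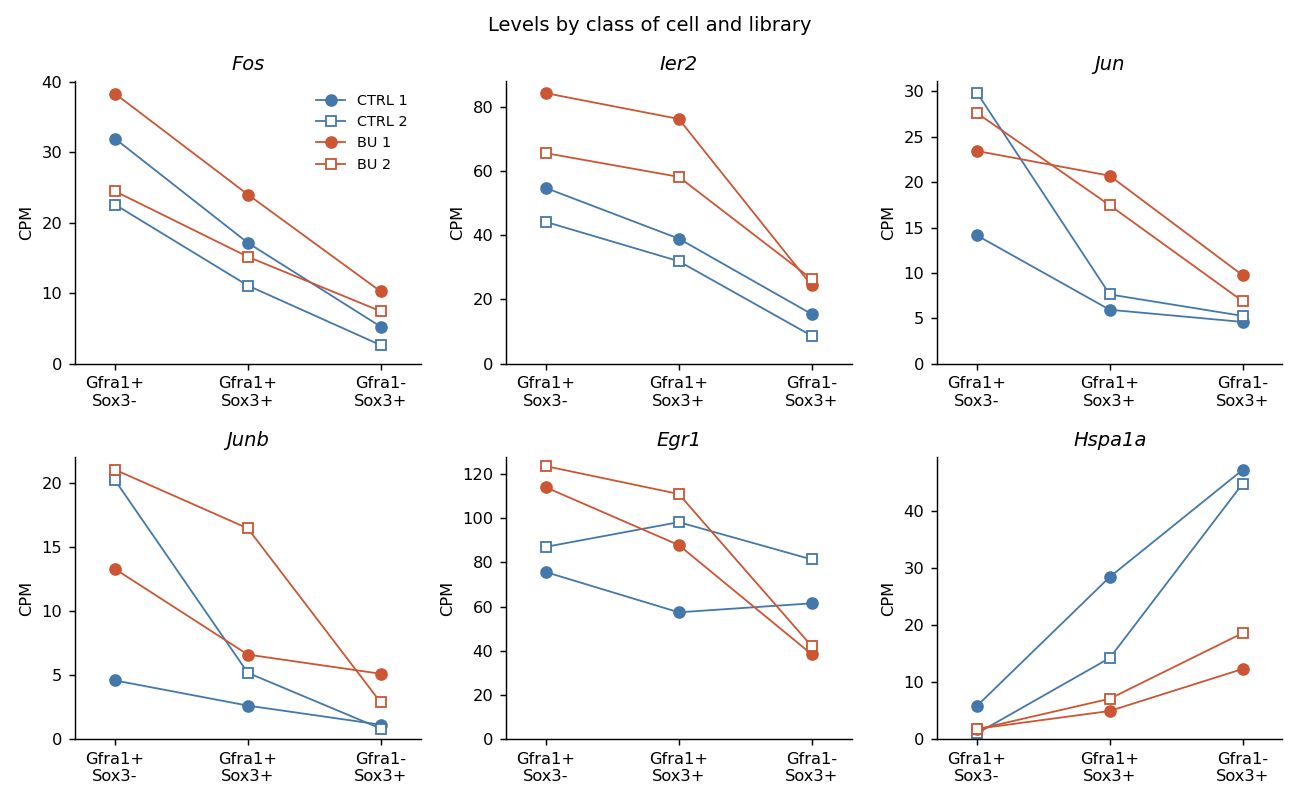
CPM of Fos, Ier2, Jun, Junb, Egr1 and Hspa1a in Gfra1+ Sox3- cells, cells with both labels and Sox3+ Gfra1- cells, with 1 line per library. Fos falls from 22.6 to 38.4 CPM on the left to 2.63 to 10.3 CPM on the right, whereas Hspa1a climbs from 1.04 to 5.84 CPM to 12.3 to 47.1 CPM.

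Of the 8 genes that passed the filter on low counts, 2 were called higher and 4 lower in Sox3+ Gfra1- cells, beside 15.4% of 13469 genes called higher and 16.3% called lower. In CPM, 2 were higher and 6 lower in every library, against 20.6% and 26.8% of the genes tested. Egr1, a zinc finger transcription factor induced through SRF (log2 difference -0.82 ± 0.28, adjusted p = 0.051), and Dusp1, a phosphatase that inactivates MAP kinases (-0.43 ± 0.15, adjusted p = 0.057), did not pass. Over 12 analysis settings Egr1 was called in 6 (adjusted p of 5.0e-07 to 0.18) and Dusp1 in 3 (0.028 to 0.50), both always lower. Without CTRL 2 Egr1 (-1.14), Dusp1 (-0.56) and Atf3 (-1.37) were called (adjusted p = 0.0034, 0.017 and 0.041), and without CTRL 1 Egr1 was (-1.04, adjusted p = 0.047). The fit without CTRL 2 called 3750 genes in all, against 4260 in the main fit. The 5 calls for Fos, Jun, Junb, Ier2 and Hspa1a stood under all 12 analysis settings and without each library in turn. Without the library block 951 genes were called (7.06%, of which 2.64% higher and 4.42% lower), with 1 of the 10 genes higher and 4 lower, and Jund lost its call (adjusted p = 0.17), as it did where any UMI set the class (adjusted p = 0.062). The somatic markers summed to 29.8, 244, 31.3 and 148.5 CPM in Gfra1+ Sox3- cells, and without somatic, spermatid or Kit-high cells the log2 differences were -1.31 for Jun, -2.23 for Junb and -0.86 for Egr1 (adjusted p = 0.025), all in the same direction.

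Genes of the same pathways outside the 10 were counted by list. Of 34 other immediate early genes tested, 2 were higher and 20 lower in Sox3+ Gfra1- cells (median log2 difference -0.64, against 0.0106 over all genes). Of 14 feedback inhibitors, 3 were higher and 9 lower (median -1.02). Egr2, an EGR1 paralogue, differed by -3.39 ± 0.21 (adjusted p = 2.0e-05), and the ERK phosphatases Dusp4 by -3.23 ± 0.16 and Dusp6 by -2.99 ± 0.16 (adjusted p = 1.5e-05 and 1.6e-05). The largest rises were those of Dusp2, another MAP kinase phosphatase, at 2.60 ± 0.23 (adjusted p = 0.00011), of Trib3, a pseudokinase of the ATF4 response, at 2.38 ± 0.32 (adjusted p = 0.00090), and of Ddit4, an inhibitor of mTORC1, at 1.79 ± 0.28 (adjusted p = 0.0019).

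Among 14 genes of the unfolded protein and amino acid stress responses, 4 were higher and 6 lower (median -0.28). Of 22 heat shock genes 1 was higher and 3 lower (median -0.05), and of 21 upstream kinases and factors 3 were higher and 5 lower (median -0.05). The AP-1 partners gave 1 higher and 2 lower of 7. Without the library block the counts were 0 and 10 for the other immediate early genes, 2 and 8 for the feedback inhibitors, 3 and 0 for the stress response list, and 0 for the rest.

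The second question was how the 10 genes stood after busulfan. In Gfra1+ cells, Hspa1a was low in both BU libraries, while Ier2, Jun, Egr1 and Atf3 were higher in both BU libraries than in both CTRL libraries. No gene of the 10 passed the test there.

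Ier2 held 49.7 and 38.9 CPM in Gfra1+ cells of CTRL 1 and CTRL 2 and 83.2 and 64.6 CPM in those of BU 1 and BU 2 (44.3 ± 7.63 against 73.9 ± 13.1, mean ± SD, n = 2 libraries each). Egr1 held 69.8 and 91.8 CPM in CTRL and 110.5 and 121.9 CPM in BU, and Jun 11.5 and 20.4 against 23.1 and 26.3 CPM. For these genes the lower BU library was above the higher CTRL library. In Gfra1+ Sox3- cells alone this held for Ier2 and Egr1, whereas Jun overlapped between the groups, with CTRL 2 highest. How many of all genes did not overlap in that class was not computed. Hspa1a held 13.0 and 6.69 CPM in CTRL and 2.26 and 2.44 CPM in BU, with both BU libraries below both CTRL libraries. Cells with both labels, in which Hspa1a was higher, were 150 of 585 and 78 of 214 Gfra1+ cells in CTRL. In BU they were 100 of 865 and 57 of 528. In Gfra1+ Sox3- cells alone, at the levels given above, Hspa1a overlapped between the groups, with CTRL 2 below both BU libraries. Fos (27.3 and 17.7 against 36.5 and 23.3 CPM), Junb (3.99 and 13.8 against 12.5 and 20.5 CPM) and Dusp1 (33.1 and 19.9 against 31.6 and 20.3 CPM) overlapped between the groups.

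**Figure D2:**
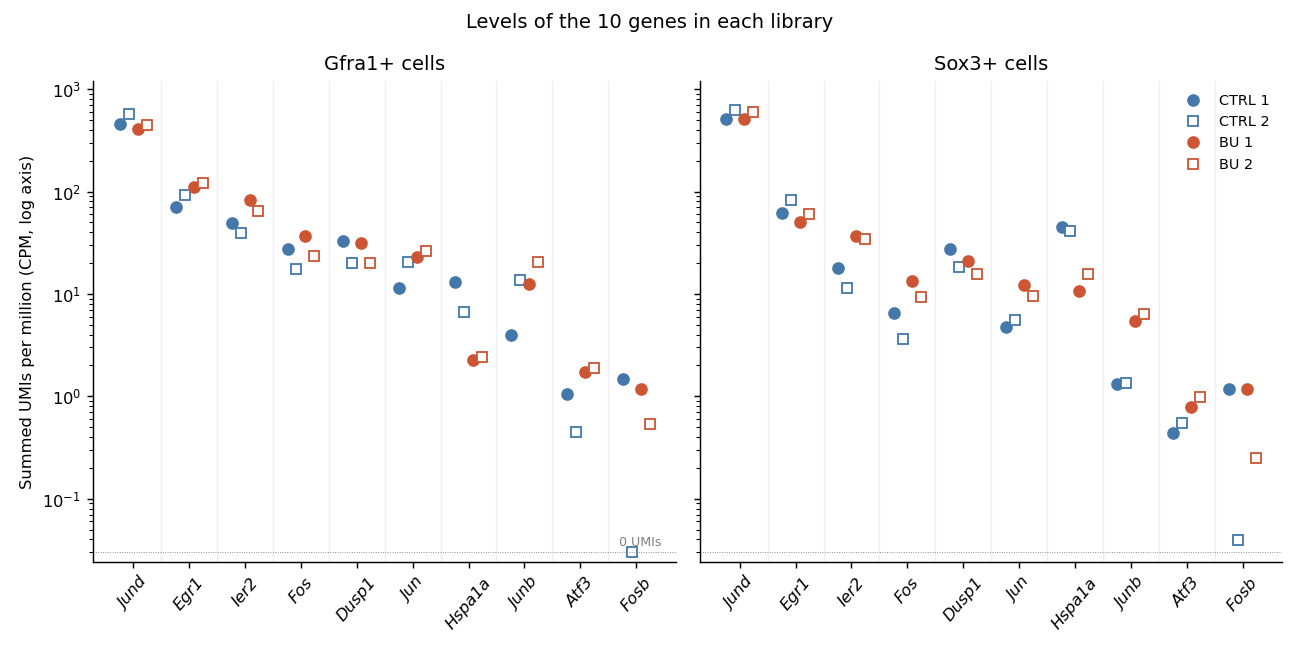
CPM (log axis) of the 10 genes in Gfra1+ cells and Sox3+ cells, with 1 point per library and libraries without a UMI on a separate line. In Gfra1+ cells the BU points of Ier2 (64.6 and 83.2 CPM) lie above the CTRL points (38.9 and 49.7 CPM), and those of Hspa1a (2.26 and 2.44 CPM) below (6.69 and 13.0 CPM).

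Of the 9 genes tested in Gfra1+ cells, the CPM of 4 (Atf3, Jun, Ier2 and Egr1) were higher in both BU libraries and of 2 (Jund and Hspa1a) lower, where 10.8% and 21.6% of all 13632 genes tested were so. By edgeR's quasi-likelihood test on condition alone, 0% of the genes were called (583 at an unadjusted p under 0.05, and 15 called by DESeq2, none of the 10). The log2 differences were -1.97 ± 0.48 for Hspa1a, 0.83 ± 0.31 for Ier2, 0.73 ± 0.36 for Jun, 0.62 ± 0.27 for Egr1, 0.99 ± 0.61 for Junb and 0.50 ± 0.39 for Fos, with an adjusted p of 0.9999 each by that test. With the experiment as a block 9 genes were called (0.066%, of which 0.0367% higher and 0.0293% lower), none of them among the 10. The smallest adjusted p were 0.12 for Hspa1a (-1.85 ± 0.41) and 0.17 for Ier2 (0.83 ± 0.21). With the block and without Kit+ cells (a Kit level above 2, as for Gfra1), 217 genes were called and Hspa1a passed (-1.94, adjusted p = 0.0089). Hspa1a of Gfra1+ Sox3- cells without Kit+ cells held 5.87 and 1.05 CPM in CTRL and 1.94 and 1.72 CPM in BU, and the groups overlapped. Without somatic, spermatid or Kit-high cells the log2 differences of Jun and Junb were 1.22 and 1.68. Of the 112 genes of the wider lists tested in Gfra1+ cells, edgeR called 0 with or without the block (21 and 7 at an unadjusted p under 0.05), and DESeq2 called 0. The largest list medians on condition alone were 0.29 for the feedback inhibitors and -0.28 for the stress response list, against 0.003 over all genes.

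Jun and Junb were the members that moved with somatic cells. The Gfra1+ cells read as somatic, with more somatic than germ marker UMIs, numbered 3, 10, 9 and 32. In them Jun stood at 691, 279, 295 and 291 CPM and Junb at 307, 208, 431 and 243 CPM. In Gfra1+ cells without somatic, spermatid or Kit-high cells Jun held 9.70, 9.25, 21.8 and 20.1 CPM and Junb 3.16, 5.33, 10.5 and 15.2 CPM. There neither gene overlapped between CTRL and BU. The share of all genes without overlap in these cells was not computed. Neither gene was called by edgeR or DESeq2 under any of 15 settings (lowest adjusted p 0.19 for Jun and 0.094 for Junb).

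**Figure D3:**
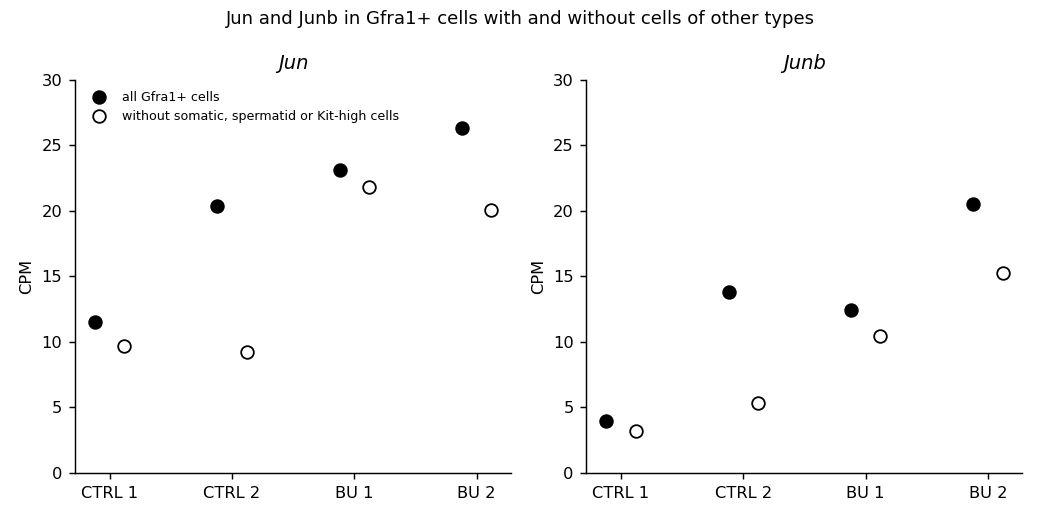
CPM of Jun and Junb in Gfra1+ cells by library, over all Gfra1+ cells and without somatic, spermatid or Kit-high cells. Junb of CTRL 2 drops from 13.8 to 5.33 CPM and Jun from 20.4 to 9.25 CPM, which leaves both BU libraries above both CTRL libraries for each gene.

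In Sox3+ cells Junb, Ier2, Fos and Jun stood higher and Hspa1a lower in both BU libraries. Junb, Ier2 and Hspa1a passed the test once the experiment was fitted as a block. Hspa1a held 45.0 and 41.2 CPM in CTRL 1 and CTRL 2 and 10.6 and 15.6 CPM in BU 1 and BU 2 (43.1 ± 2.70 against 13.1 ± 3.58). Ier2 held 18.1 and 11.4 against 36.6 and 34.5 CPM (14.7 ± 4.74 against 35.6 ± 1.50), and Junb 1.32 and 1.35 against 5.48 and 6.37 CPM (1.33 ± 0.0204 against 5.93 ± 0.628), from 18, 34, 28 and 77 UMIs. The groups did not overlap for any of these 3 genes. Fos, at 6.58 and 3.60 against 13.5 and 9.43 CPM, and Jun, at 4.75 and 5.54 against 12.3 and 9.60 CPM, did not overlap either. Cells with both labels were 150 of 1470 and 78 of 646 Sox3+ cells in CTRL, and 100 of 473 and 57 of 264 in BU. In Sox3+ Gfra1- cells alone, at the levels given above, these genes kept their directions without overlap. Fos, Jun, Junb and Ier2 of BU were lower there than in all Sox3+ cells. BU was not tested against CTRL within that class alone, and the share of all genes without overlap there was not computed.

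By edgeR's quasi-likelihood test on condition alone, 0% of 14445 genes were called (2028 at an unadjusted p under 0.05). The log2 differences were -1.75 ± 0.31 for Hspa1a and 2.11 ± 0.36 for Junb (adjusted p = 0.19 for both) and 1.24 ± 0.32 for Ier2 (adjusted p = 0.23). DESeq2 called 328 genes in the same comparison, with Hspa1a (adjusted p = 0.0011) and Junb (adjusted p = 0.023) among them. Without each library in turn the log2 difference ranged from -2.08 to -1.49 for Hspa1a and from 1.98 to 2.22 for Junb. Junb also passed with no filter on low counts (adjusted p = 0.019).

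The libraries of 1 experiment shared kit and sequencing lane, and with the experiment as a block 822 genes were called (5.69%), 373 higher (2.58%) and 449 lower (3.11%). Of the 10 genes 2 were then higher, Junb at 2.12 ± 0.33 (adjusted p = 0.032) and Ier2 at 1.27 ± 0.23 (adjusted p = 0.039), and 1 lower, Hspa1a at -1.76 ± 0.25 (adjusted p = 0.028). Fos (1.17 ± 0.26, adjusted p = 0.054) and Jun (1.02 ± 0.27, adjusted p = 0.078) missed the threshold of 0.05. In CPM 5 of the 10 were higher in both BU libraries (Atf3, Jun, Ier2, Junb and Fos) and 2 lower (Hspa1a and Egr1), against 26.1% and 20.7% of the genes tested.

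Kit+ cells made up 24 and 20 of the Sox3+ cells of CTRL 1 and CTRL 2 and 134 and 86 of those of BU 1 and BU 2. Without them and with the block, 1055 genes were called, beside 822 (5.69%) with all Sox3+ cells. Fos (1.30, adjusted p = 0.0073), Jun (1.20, adjusted p = 0.016) and Junb (2.49, adjusted p = 9.1e-05) then passed as higher. So did Ier2 (1.63, adjusted p = 0.00020), while Hspa1a (-1.46, adjusted p = 0.00072) passed as lower. Egr1, at -0.43 ± 0.17 with all Sox3+ cells, stood at -0.00041 without Kit+ cells.

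**Figure D4:**
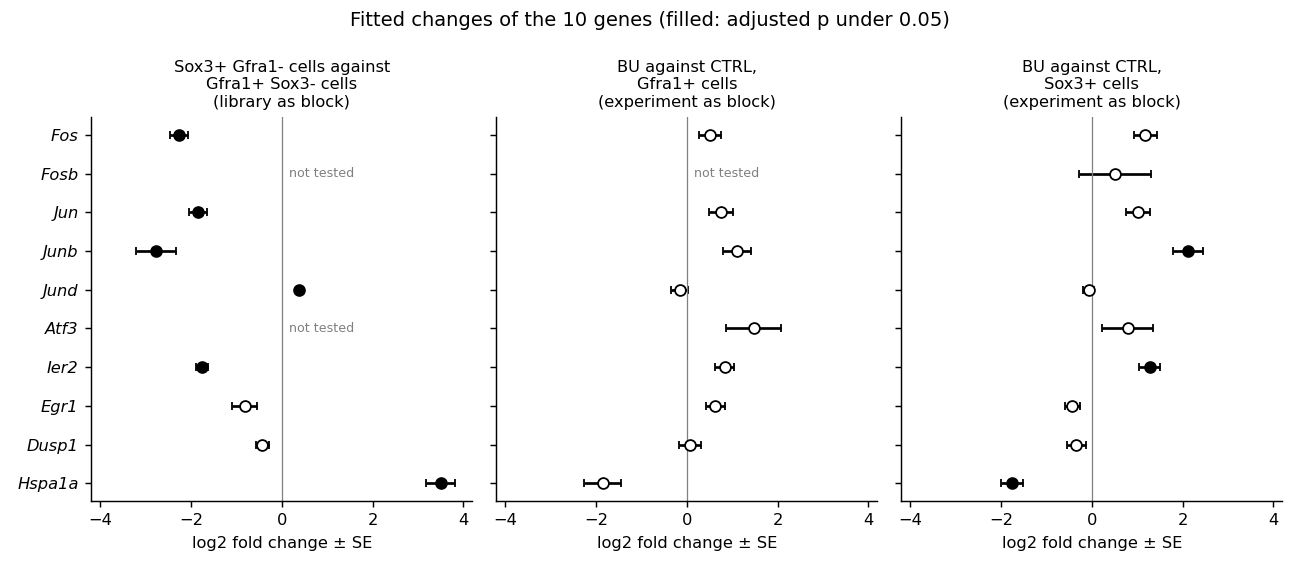
Log2 differences ± SE of the 10 genes for Sox3+ Gfra1- against Gfra1+ Sox3- cells (library as block) and for BU against CTRL in Gfra1+ and in Sox3+ cells (experiment as block), with filled points where the adjusted p was under 0.05. Fos, Jun, Junb and Ier2 lie below 0 in the class comparison, from -2.77 to -1.75, and above 0 in both BU comparisons, whereas Hspa1a lies at 3.50 in the first and at -1.85 and -1.76 in the others.

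Hspa1a has a near copy, Hspa1b, and the 2 were counted apart. Of the 2868 windows of 100 bases in the Hspa1a transcript 47.1% also occur in Hspa1b, but none of the 401 windows in its last 500 bases, nearest to the 3′ end that these kits read. The levels of the 2 genes summed to 46.1, 60.5, 12.5 and 27.6 CPM in Sox3+ cells and to 14.3, 12.5, 2.47 and 6.45 CPM in Gfra1+ cells of CTRL 1, CTRL 2, BU 1 and BU 2. Both BU libraries remained below both CTRL libraries in each class after summing. Hspa1b alone held 1.10, 19.3, 1.96 and 11.9 CPM in Sox3+ cells and 1.26, 5.79, 0.215 and 4.01 CPM in Gfra1+ cells. Its levels overlapped between CTRL and BU in each class and were higher in both libraries of experiment 2.

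Among the wider lists in Sox3+ cells, with the experiment as block, 7 of 112 genes tested were called higher and 8 lower, beside 2.58% and 3.11% of all genes. The feedback inhibitors gave 4 higher and 1 lower of 14 (median log2 difference 0.67, against 0.0283 over all genes), and the other immediate early genes 3 higher and 2 lower of 34. Egr2 rose by 1.31 ± 0.24 (adjusted p = 0.039), Ier5l, a relative of IER2, by 1.27 ± 0.23 (adjusted p = 0.038) and Dusp6 by 1.21 ± 0.20 (adjusted p = 0.036). Ddit4 fell by 1.61 ± 0.18 (adjusted p = 0.023), Trib3 fell by 1.56 ± 0.22 (adjusted p = 0.028) and Dusp10, a phosphatase of p38 and JNK, fell by 1.45 ± 0.23 (adjusted p = 0.034). Of the stress response list 3 of 14 were lower, of the heat shock list 1 of 22 and of the upstream list 1 of 21, and no AP-1 partner was called (3 of 7 at an unadjusted p under 0.05 by edgeR).

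Egr1 (ENSMUSG00000038418, chromosome 18) was the member for which BU and CTRL differed in opposite directions in the 2 classes when all their cells, Kit+ cells included, were summed. In Gfra1+ Sox3- cells it held 75.6 and 87.0 CPM in CTRL and 113.9 and 123.5 CPM in BU. In Sox3+ Gfra1- cells it held 61.5 and 81.4 CPM in CTRL and 38.5 and 42.2 CPM in BU. BU was above CTRL in the first class and below it in the second, in both experiments and without overlap. The share of all genes without overlap in these 2 classes was not computed. The difference between the classes in the log2 effect of BU was -1.57 ± 0.13 (edgeR interaction term with library as a block, adjusted p = 6.0e-05), and lay between -1.68 and -1.41 without each library in turn.

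Of the 10 genes, 1 (Egr1) was called in this interaction, beside 9.93% of 14467 genes (3.64% higher and 6.29% lower in Sox3+ Gfra1- cells). Kit held 2.06, 6.34, 61.6 and 76.0 CPM in Sox3+ Gfra1- cells, and without Kit+ cells the Egr1 interaction was -1.005 ± 0.15 (adjusted p = 0.0071). Egr1 then held 75.6 and 87.6 CPM in CTRL and 114.6 and 124.7 CPM in BU in Gfra1+ Sox3- cells, and 62.1 and 82.9 CPM in CTRL and 55.8 and 62.7 CPM in BU in Sox3+ Gfra1- cells. BU was still above CTRL without overlap in the first class, whereas in the second the groups overlapped, with BU below CTRL within each experiment. Where any UMI of Gfra1 or Sox3 set the class it was -1.96 ± 0.30 and was not called (adjusted p = 0.11). Fos had an interaction of 0.85 ± 0.26 (adjusted p = 0.062), which passed without somatic, spermatid or Kit-high cells (0.91, adjusted p = 0.0060), as did Dusp1 (-0.63, adjusted p = 0.016). That fit called 2609 genes, against 1436 in the main fit. Fos also passed with library size scaling (1.04, adjusted p = 0.021) and under 10% mitochondrial UMIs (0.88, adjusted p = 0.049), in all 3 of 9 settings. Junb (1.25 ± 0.66, adjusted p = 0.27), Ier2 (0.37 ± 0.21, adjusted p = 0.30), Hspa1a (-0.82 ± 0.53, adjusted p = 0.37) and Jun (0.26 ± 0.33, adjusted p = 0.69) did not pass. Without each library in turn the term ranged from -0.46 to 2.03 for Junb, from 0.65 to 1.08 for Fos and from -2.43 to 0.039 for Hspa1a.

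**Figure D5:**
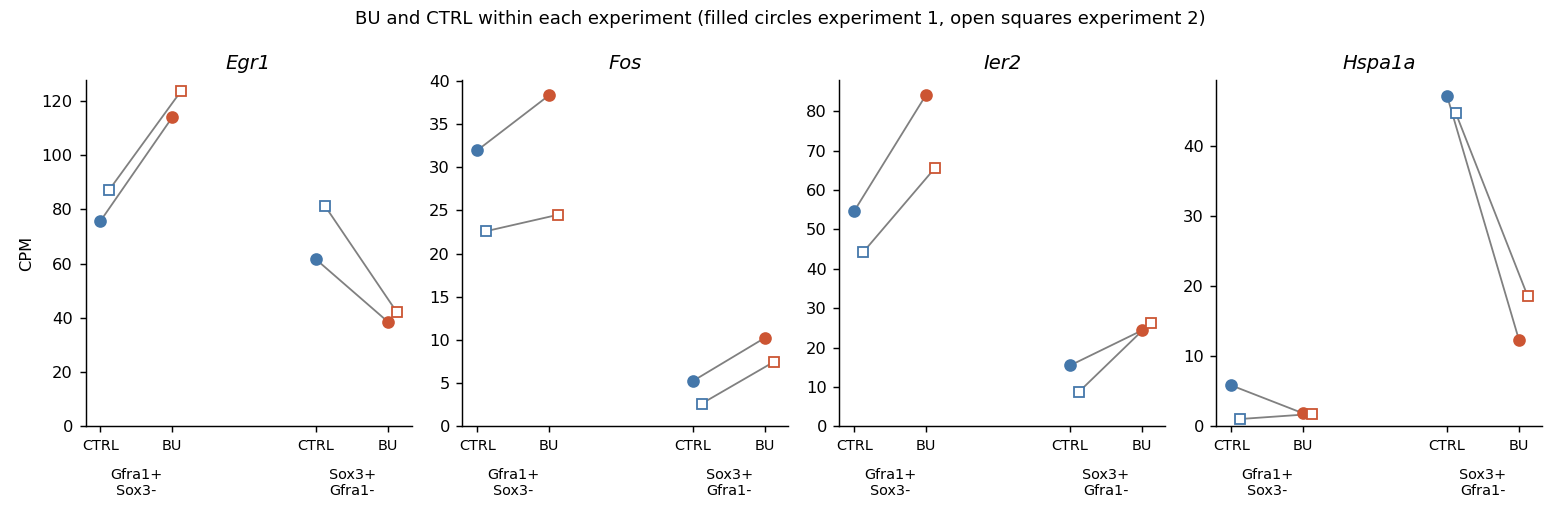
CPM of Egr1, Fos, Ier2 and Hspa1a in CTRL and BU libraries of the same experiment, in Gfra1+ Sox3- and Sox3+ Gfra1- cells. The lines of Egr1 climb to 113.9 and 123.5 CPM in Gfra1+ Sox3- cells and drop to 38.5 and 42.2 CPM in Sox3+ Gfra1- cells.

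Within the wider lists the same interaction was called in 8 genes upwards and 18 downwards of 114. Egr4, another EGR family member, differed by -1.48 ± 0.11 (adjusted p = 2.9e-05), Klf2, a Krüppel-like factor, by -1.70 ± 0.17 (adjusted p = 0.00020) and Trib3 by -1.63 ± 0.38 (adjusted p = 0.018). The largest positive terms were those of Gadd45b, a growth arrest and stress gene (1.17 ± 0.22, adjusted p = 0.0062), Sesn2, a stress-induced inhibitor of mTORC1 (1.16 ± 0.21, adjusted p = 0.0053), and Ier5l (1.09 ± 0.27, adjusted p = 0.022). The heat shock list gave 2 positive and 6 negative of 22, the other immediate early genes 4 and 6 of 36, the feedback inhibitors 1 and 1 of 14, the stress response list 1 and 3 of 14 and the upstream list 0 and 2 of 21. No AP-1 partner was called in it by edgeR (0 of 7 at an unadjusted p under 0.05, and 1 without somatic, spermatid or Kit-high cells).

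The levels could come from few cells or many, so shares of cells were compared at 1 depth, after each cell had been thinned to 5000 UMIs. Ier2 was found in 20.4%, 14.4%, 34.4% and 27.9% of Gfra1+ cells of CTRL 1, CTRL 2, BU 1 and BU 2 (exact binomial 95% intervals 17.0 to 24.1%, 9.90 to 19.9%, 31.2 to 37.7% and 24.1 to 31.9%, for counting error only). In Sox3+ cells it was found in 8.26%, 5.80%, 15.4% and 15.8% (6.88 to 9.81%, 4.12 to 7.91%, 12.3 to 19.0% and 11.6 to 20.9%). Both BU shares were above both CTRL shares in each class, by 13.7 and 8.60 percentage points, and by 14.0 and 13.5 points in Gfra1+ cells of experiment 1 and experiment 2 alone. The exact two-sided permutation test over 2 against 2 libraries gave p = 0.333, the smallest it allows. In 91 thinned spermatids, which should lack most of these transcripts, Ier2 was found in 1 cell (1.10%). Those spermatids were pooled over the libraries, and the Ier2+ cell was in BU 1, which held only 7 spermatids before thinning. The pooled share is therefore no measure of the background of each library.

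Hspa1a was found in 18.9%, 17.7%, 5.35% and 9.27% of thinned Sox3+ cells (16.9 to 21.0%, 14.8 to 20.9%, 3.49 to 7.80% and 6.03 to 13.5%), a drop of 11.0 points. In Gfra1+ cells its shares were 5%, 2.39%, 0.945% and 1.53%, of which the BU values were near the 1.10% of spermatids. Egr1 was found in 26.5%, 30.9%, 16.5% and 22.0% of thinned Sox3+ cells (24.3 to 28.9%, 27.3 to 34.6%, 13.2 to 20.2% and 17.1 to 27.6%) and in 27.3%, 34.9%, 36.8% and 36.5% of Gfra1+ cells, against 3.30% of spermatids. All Egr1+ spermatids were in the BU libraries. The share of Egr1+ cells was lower in both BU libraries in Sox3+ cells and higher in both in Gfra1+ cells, by -9.45 and 5.53 points (exact permutation p = 0.333 each). Without thinning the Ier2 shares were 28.4%, 53.7%, 52.3% and 76.3% in Gfra1+ cells and 13.7%, 26.6%, 26.9% and 54.2% in Sox3+ cells, and within each condition they were higher in the deeper library.

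Fos was found in 11.5%, 6.70%, 14.4% and 8.59% of thinned Gfra1+ cells and in 2.52%, 1.10%, 4.93% and 3.09% of Sox3+ cells. The 0 of 91 spermatids with a Fos UMI allow a share of up to 3.30%, so 3 of the 4 Sox3+ shares were not above that limit. Junb was found in 0.840%, 0.627%, 1.93% and 3.09% of Sox3+ cells. It was found in 2 of 91 spermatids (2.20%, exact binomial 95% interval 0.27 to 7.7%). These pooled spermatids do not measure the background of each library. The Sox3+ shares of Fos and Junb can therefore not be judged against them. Jund was found in 80.6% to 89.5% of Gfra1+ cells and in 57 of the 91 spermatids (62.6%).

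Jund alone was found in most thinned Gfra1+ cells of each library, and each of the other 9 genes in a minority of them. Gfra1+ cells carried 1.69 to 1.98 of the 10 genes on average over the libraries, 5.26% to 6.73% carried none, and 18.1% to 29.9% carried at least 3. The 10% of cells with most UMIs of the 10 genes held 24.3% to 30.8% of those UMIs, of which Jund gave the largest part. Across single Gfra1+ cells the 10 genes were weakly related, with a mean Pearson r over the 4 libraries of 0.208 for Jun and Junb (0.0309 to 0.312), a description only.

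Atf3 and Fosb were near the limit of detection. Atf3, a stress-induced ATF family factor, gave 5, 3, 16 and 46 UMIs in Gfra1+ cells (1.05, 0.446, 1.72 and 1.90 CPM) and 6, 14, 4 and 12 UMIs in Sox3+ cells. Its CPM were higher in both BU libraries in each class, and the log2 differences were 1.41 ± 0.65 in Gfra1+ cells and 0.80 ± 0.53 in Sox3+ cells, neither called by edgeR (adjusted p = 0.9999 and 0.56). Fosb, a FOS paralogue, gave 7, 0, 11 and 13 UMIs in Gfra1+ cells and did not pass the filter on low counts there. The 0 of CTRL 2 allows up to 0.446 CPM. In Sox3+ cells Fosb gave 16, 1, 6 and 3 UMIs, or 1.17, 0.0396, 1.18 and 0.248 CPM, and stood higher in both libraries of experiment 1.

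The third comparison set experiment 2 against experiment 1, with condition in the fit. A cell of median depth needed more UMIs of Gfra1 or Sox3 to enter a class in experiment 2. In Gfra1+ cells 1015 genes were called (7.45%, of which 5.43% higher and 2.02% lower), but none of the 9 members tested by edgeR's quasi-likelihood test (3 at an unadjusted p under 0.05, and none of the 10 by DESeq2, which called 670 genes). Junb was higher in both libraries of experiment 2 (1.12 ± 0.32 on the log2 scale, adjusted p = 0.064), and Fos (-0.66 ± 0.24, adjusted p = 0.12) and Dusp1 (-0.71 ± 0.24, adjusted p = 0.10) were lower in both, where 27.9% and 23.7% of all genes did not overlap upwards and downwards. With cells thinned to 5000 UMIs, Jun (1.21, adjusted p = 0.032) and Junb (2.08, adjusted p = 0.0039) passed. Junb also passed with no filter (adjusted p = 0.0049), under 10% mitochondrial UMIs (0.037) and without Kit+ cells (0.0079). Fits without 1 library had no condition term, so a difference between BU and CTRL could enter them. Without BU 1 the differences were 2.12 for Junb and -1.66 for Hspa1a. Where any UMI set the class, 3969 genes were called, against 1015 of 13632 in the main fit. Among them Fos (-1.085, adjusted p = 0.0061), Ier2 (-0.66, adjusted p = 0.039), Dusp1 (-0.71, adjusted p = 0.049) and Fosb (-2.21, adjusted p = 0.041) were lower in experiment 2. These calls are not read as particular to the 10 genes. Without somatic, spermatid or Kit-high cells the differences were -0.07 for Jun and 0.65 for Junb (adjusted p = 0.29), and the sum of somatic markers was 15.1 to 20.1 CPM in all libraries.

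In Sox3+ cells 521 genes were called between the experiments (3.61%, of which 2.63% higher and 0.976% lower) and again none of the 10 by edgeR's quasi-likelihood test (2 at an unadjusted p under 0.05, and none by DESeq2). Fosb came nearest (-3.31 ± 0.82, adjusted p = 0.082), and passed where any UMI set the class (-3.33, adjusted p = 9.6e-05), with no filter on low counts (-3.29, adjusted p = 0.019) and without Kit+ cells (-4.81, adjusted p = 0.0015). Each of those fits called more genes in all than the main fit. Jund was higher and Fosb and Dusp1 lower in both libraries of experiment 2, against 20.4% and 21.3% of all genes. Among the wider lists Ier5l was higher in experiment 2 in Gfra1+ and in Sox3+ cells (2.17 ± 0.26 and 1.81 ± 0.23, adjusted p = 0.0014 and 0.015), as was Hsp90ab1, the constitutive HSP90 (1.06 ± 0.21 and 1.09 ± 0.095, adjusted p = 0.016 and 0.0042). Dusp14, a MAP kinase phosphatase, was lower (-1.004 ± 0.25 and -1.06 ± 0.19, adjusted p = 0.040 and 0.046). In Gfra1+ cells it was not called by DESeq2, nor without somatic, spermatid or Kit-high cells. In all, 6 genes of the wider lists were higher and 3 lower of 112 in Gfra1+ cells, and 6 higher and 1 lower of 112 in Sox3+ cells.

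The last comparison asked whether the 10 genes differed with the RNA of 7 mitotic genes. Gfra1+ cells of at least 5000 UMIs were called cycling where thinning left at least 2 UMIs of these 7. This gave 360, 158, 714 and 419 cycling and 160, 51, 133 and 105 other cells. Most of the cells of every library were thus called cycling, and whether they were dividing was not tested. Jun held 9.11, 10.7, 21.5 and 18.7 CPM in cycling and 17.5, 55.4, 25.8 and 80.0 CPM in other cells, and Junb 2.73, 7.80, 11.9 and 15.4 against 5.82, 35.6, 9.68 and 57.6 CPM. Jun was lower in cycling cells of every library and Junb in all but BU 1. The log2 differences were -1.54 ± 0.33 for Jun (adjusted p = 0.020) and -1.42 ± 0.37 for Junb (adjusted p = 0.037), the 2 calls among 8 members tested, both lower, beside 14.9% of 11528 genes (7.5% higher and 7.36% lower).

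Somatic markers summed to 17.0 to 39.8 CPM in cycling Gfra1+ cells and to 38.2, 612, 42.8 and 947 CPM in the others. Without somatic, spermatid or Kit-high cells neither gene was called, at -0.42 for Jun (adjusted p = 0.092) and 0.145 for Junb (adjusted p = 0.77), and without the library block neither was (82 genes called, 0.711%). Where any UMI set the class neither was called (adjusted p = 0.065 for Jun and 0.10 for Junb). Jun also lost its call without CTRL 2 or BU 2 and Junb without CTRL 1, CTRL 2 or BU 2. Fos (-0.15 ± 0.24), Ier2 (0.17 ± 0.16), Egr1 (-0.00042 ± 0.11) and Hspa1a (0.37 ± 0.33) were not called, with adjusted p of 0.50 to 0.9985 by edgeR. Of 107 genes of the wider lists, 4 were higher and 10 lower in cycling cells, 7 and 18 of 104 without somatic, spermatid or Kit-high cells (where 9.16% and 7.76% of all 11041 genes were called), and 0 by edgeR without the library block (13 at an unadjusted p under 0.05). The other immediate early genes gave 1 higher and 6 lower of 32. Ier3, an inhibitor of apoptosis in many cells, was at -1.59 ± 0.35 (adjusted p = 0.021) and Klf2 at -1.14 ± 0.20 (adjusted p = 0.0084). Without somatic, spermatid or Kit-high cells the largest called falls at 10 CPM or more were Klf2 (-1.43), Jdp2 (-0.95) and Egr2 (-0.70). Ier3 was not among them. The heat shock genes gave 2 higher and 1 lower of 21, with Hsp90aa1, the inducible HSP90, at 0.44 ± 0.07 (adjusted p = 0.0070). Of the stress response list 3 of 14 were lower, and of the upstream list 1 of 20 was higher. Of the 13 feedback inhibitors and 7 AP-1 partners edgeR called 0 (1 and 2 at an unadjusted p under 0.05). Without somatic, spermatid or Kit-high cells it called the AP-1 partner Jdp2 lower (-0.95 ± 0.20, adjusted p = 0.00053).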

How the data were processed

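Sorted A_undiff of 4 droplet libraries, CTRL and BU of 2 experiments, were analysed. Counts of UMIs for each gene in each cell were deposited, as the filtered output of Cell Ranger (version 3.0.2 in the header of the matrices), with no normalisation, and the submitters' notes also name Seurat 3.2. The labels list GRCm39 and the paper mm10 as the genome, and the coordinates given here are those of GENCODE on GRCm38. Libraries held 26802228 (CTRL 1), 39904588 (CTRL 2), 21136369 (BU 1) and 53579969 (BU 2) UMIs. The number of libraries limits precision, and binomial intervals reflect counting alone.

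Gene identifiers matched the libraries to each other, and CPM used the 27514 shared genes. No doublet caller was run, and an alternative left out cells above 2 times their library's median UMI count. Cells were read as somatic where the summed UMIs of 22 somatic markers exceeded those of 4 germ markers, as spermatid above 5% protamine and transition protein UMIs, and as Kit-high above a normalised level of 4. UMIs were summed per library and class, filtered with filterByExpr, scaled by TMM and tested with edgeR's quasi-likelihood test (edgeR 4.0.16, limma 3.58.1, R 4.3.3) at a Benjamini-Hochberg adjusted p of 0.05 over all genes tested. SE is the log2 difference divided by the square root of its F value. BU and CTRL were compared on condition alone and with the experiment as a block. DESeq2 1.42.0, other scalings, filters, cell classes and left-out libraries were alternatives. The edgeR fits of BU against CTRL, of the experiments in Gfra1+ cells and of the 2 classes were checked on simulated data. The interaction, the cycling comparison, the experiments in Sox3+ cells, DESeq2 and the permutation test were not. Sums and figures were made in Python 3.11.15 with scipy 1.17.1, pandas 2.3.3, numpy 2.4.6 and matplotlib 3.10.9.

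Same-numbered libraries shared kit and lane by the labels. Over genes, the departures of CTRL 1 and BU 1 from the mean of their own group correlated at 0.664 in Gfra1+ cells and 0.615 in Sox3+ cells. The members and lists were chosen with earlier results of these data known. The 10 members were described in every comparison, and from the wider lists the 3 genes with the greatest rise and the 3 with the greatest fall among those called, with a mean of at least 10 CPM were eligible to be named. The interaction, Kit+ and shared barcode analyses were added after the data had been seen.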

Additional observations from a re-analysis of the deposited data

Results flagged for a closer look

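Egr1 differed between the classes in its response to BU. The log2 difference between BU and CTRL in Sox3+ Gfra1- cells minus that in Gfra1+ Sox3- cells was -1.57 ± 0.13 (edgeR's quasi-likelihood test of the interaction, adjusted p = 6.0e-05), with every BU library above the CTRL libraries in Gfra1+ Sox3- cells and below them in Sox3+ Gfra1- cells. Over 9 settings it lay between -1.96 and -1.005 and was called in 8. Without Kit+ cells the interaction was -1.005 and still called, but Egr1 of Sox3+ Gfra1- cells then overlapped between CTRL (62.1 and 82.9 CPM) and BU (55.8 and 62.7 CPM), and over all Sox3+ cells the log2 difference between BU and CTRL was -0.00041 with the experiment as a block.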

How the results depend on the processing

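Calls and differences were recomputed under 1 changed choice at a time, or with the replicate block and a choice of cells together where both are named. Between the experiments, the fits without 1 library also left out the condition term. The number of genes called for BU against CTRL in Gfra1+ cells was 0, and became 9 with the replicate block, 15 with DESeq2, 50 with no filter on low counts, 8 with the block and without shallower copies of shared barcodes, 217 with the block and without Kit+ cells, and 0 to 25 without each library in turn. In Sox3+ cells it was 0, and became 822 with the replicate block, 328 with DESeq2, 362 with no filter, 877 with the block and without somatic, spermatid or Kit-high cells, 872 with the block and without shallower copies, 1055 with the block and without Kit+ cells, and 10 to 1331 without each library. The experiments differed in 1015 genes in Gfra1+ cells, and in 365 without the condition term, 232 with library size scaling, 670 with DESeq2, 2179 with no filter, 3969 where any UMI set the class, 253 without somatic, spermatid or Kit-high cells, 676 without cells above 2 times the median UMI count, 1617 without Kit+ cells, and 146 to 2444 without each library. In Sox3+ cells the number was 521, and 69, 2040, 3951, 950 and 1516 without the condition term, with no filter, with any UMI, with thinned cells and without Kit+ cells, and 58 to 296 without each library. For Sox3+ Gfra1- against Gfra1+ Sox3- cells it was 4260, and 951 without the block, 2205 with any UMI and 2461 with thinned cells. For cycling cells it was 1713, and 82 without the block, 3518 with no filter and 392 to 1718 without each library. For the interaction it was 1436, and 3 with any UMI, 2609 without somatic, spermatid or Kit-high cells, 349 with thinned cells, 158 without Kit+ cells and 646 to 1844 without each library. The replicate block changed no other call of the 10 genes than those given in the report.

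Direction changed only for values that were not called, save where a value is given in the report. For BU against CTRL, Dusp1 in Gfra1+ cells was -0.034 with library size scaling and -0.036 with thinned cells. In Sox3+ cells Fosb was -0.029 with any UMI, -0.41 without Kit+ cells and -0.27 with the block as well, Jund was 0.023 without Kit+ cells and 0.018 with the block as well, and Dusp1 was 0.0047 and 0.030. Between the experiments in Gfra1+ cells, Jun was -0.074 without somatic, spermatid or Kit-high cells and Hspa1a 0.51 with any UMI, and in Sox3+ cells Jun was 0.036 with thinned cells, Junb -0.028 without somatic, spermatid or Kit-high cells, and Jund -0.011 and Hspa1a -0.43 with any UMI. In cycling cells Fos was 0.11 with any UMI, Junb 0.145 without somatic, spermatid or Kit-high cells, and Egr1 0.022 with DESeq2, 0.092 with no filter, 0.15 with any UMI, 0.0053 under 10% mitochondrial UMIs, 0.011 without cells above 2 times the median and 0.0018 without Kit+ cells. In the interaction Fosb was 0.47 and Jun -0.35 without somatic, spermatid or Kit-high cells, Jun -0.18 and Jund -0.11 with any UMI, Jun -0.64 and Ier2 -0.18 with thinned cells, and Jund -0.022 without cells above 2 times the median. The share of Jund in Gfra1+ cells differed by 3.18 points without thinning.

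Without each library in turn the sign also changed for BU against CTRL of Dusp1 in Gfra1+ cells (-0.31 to 0.52) and of Fosb (-1.14 to 1.04) and Jund (-0.22 to 0.048) in Sox3+ cells. Between the experiments it changed in Gfra1+ cells for Jun (-0.023 to 1.02), Atf3 (-1.75 to 0.44), Ier2 (-0.89 to 0.073), Egr1 (-0.10 to 0.61) and Hspa1a (-1.66 to 0.83), and in Sox3+ cells for Jun (-0.67 to 0.66), Junb (-1.21 to 1.50), Atf3 (-0.0083 to 0.77), Ier2 (-1.21 to 0.34) and Hspa1a (-0.90 to 1.50). In cycling cells it changed for Fos (-0.33 to 0.24) and Egr1 (-0.10 to 0.13), and in the interaction for Jun (-0.25 to 0.65), Junb (-0.46 to 2.03), Jund (-0.094 to 0.10), Atf3 (-1.66 to 0.18) and Hspa1a (-2.43 to 0.039). The cause of these changes was not tested. Atf3 and Fosb had few UMIs in all libraries, and the settings in which they were called are those given in the report.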

Other observations

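The genes most like the 10 across thinned Gfra1+ cells were ranked by the mean over libraries of the Pearson correlation of ln(1 + UMIs) with the summed UMIs of the 10 genes, as a description of cells that share library and depth. Jund, the member with the highest level, gave the largest part of that sum. Of 9560 genes the first were Crip2 (0.188), Ucp2 (0.184), Actg1 (0.177), Clu (0.176), Tmem176b (0.173), Mid1ip1 (0.172), Tmem176a and Nenf (both 0.161), Cldn3 (0.159) and Igfbp4 (0.158). Without somatic, spermatid or Kit-high cells, a ranking added after the first was seen, Actg1 (0.139), Cirbp (0.126), Egr4 (0.121) and Hspa8 (0.121) led, and Crip2 was no longer among the first 10. In Sox3+ cells Egr4 (0.190), Txnip (0.174) and Prdx1 (0.170) led among 9394 genes. All of these correlations are weak.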
